A study of Mus musculus with 36 samples.

Results

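MicroRNA hairpin entries are the short rows of a gene expression table that carry the name of a microRNA gene. They were chosen here by symbol (Mir followed by a digit, or Mirlet7, leaving out Mir6236) and by level, with at least 1 FPKM (fragments scaled by gene length and by library depth) in at least 4 of the 36 libraries. Of 25239 genes in the table, 1188 carried such a symbol. Of these, 635 were at 0 in every library, 262 were above 0 but missed the level rule, and 291 met it. The 291 entries comprised 288 hairpins and 3 long primary transcripts (Mir17hg, Mir22hg and Mir100hg). Because measured levels chose the entries, their presence is a description and not a finding.

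The libraries came from N2a cells, a mouse neuroblastoma line, that expressed either RfxCas13d, an RNA-guided ribonuclease, or dRfxCas13d, its nuclease-dead form. The controls were cells with either nuclease and no crRNA, and cells with either nuclease and NT crRNA, a guide with no target. The remaining cells received either nuclease and a guide against a transcript. These 7 targeting guides were Rbfox3 crRNA 5 (its number in the sample titles), Mapt crRNA 4 and Mapt crRNA 6, Map2 crRNA 1 and Map2 crRNA 3, as well as Sik3-S crRNA 1 and Sik3-S crRNA 8. This gave 18 groups with 2 libraries each, all from GFP-positive cells sorted 48 h after transfection. All groups shared the cell line, which is 1 transformed line and not neurons, and nothing in the labels states that the 2 libraries of a group came from separate cultures, so p-values measure the spread between libraries, which may be technical.

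Depth was estimated from the smallest steps between FPKM values. It was 8680000 to 12170000 fragments in libraries with dRfxCas13d and 10390000 to 16540000 in those with RfxCas13d, so depth moved with the nuclease. The targeted genes matched the labels where they could be tested. The log2 fold change (RfxCas13d over dRfxCas13d) was -2.69 and -2.64 for Sik3, -2.68 and -2.64 for Map2, and -3.33 and -3.18 for Mapt, while Rbfox3 stood at a mean of 0.032 against 0.077 FPKM, too low to test. Of 13 sympathetic neuroblast markers, 11 had a median of at least 1 FPKM. The summed level of 8 hepatocyte markers was 453 FPKM in RfxCas13d with NT crRNA replicate 1 and at most 7.99 FPKM in every other library. Calls with NT crRNA are given with and without it.

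MicroRNA genes are transcribed as long primary transcripts, and many lie in introns of protein-coding genes. In the nucleus, Drosha with its partner Dgcr8 cuts the hairpin out of the transcript, Xpo5 (exportin 5) carries it to the cytoplasm, and Dicer1 trims it to the mature microRNA, which an Argonaute protein such as Ago2 loads. A group called mirtrons skips Drosha and is released by splicing of a short intron. The mature strand finds its targets mostly through its seed, bases 2 to 8. The libraries were made from poly(A) RNA and sequenced as long paired reads, so they do not hold mature microRNAs, and a fragment counted on a hairpin comes from a longer RNA that spans it.

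The sequences of hairpins with high levels or large changes are shown first, as RefSeq gives them on GRCm38.p6. RefSeq held 244 of the 288 hairpins. In the hairpins below, capitals mark the annotated mature arms, and all lower-case bases belong to the rest of the hairpin.
Mir25: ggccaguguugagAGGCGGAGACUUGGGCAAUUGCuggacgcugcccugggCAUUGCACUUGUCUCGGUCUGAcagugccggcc
Mir7079: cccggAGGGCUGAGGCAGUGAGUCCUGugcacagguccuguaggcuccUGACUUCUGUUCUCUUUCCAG
Mir7051: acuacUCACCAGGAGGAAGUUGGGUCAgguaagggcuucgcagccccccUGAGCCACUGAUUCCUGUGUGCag
Mir677: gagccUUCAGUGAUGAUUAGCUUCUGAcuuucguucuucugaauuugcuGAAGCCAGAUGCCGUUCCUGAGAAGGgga
Mir5125: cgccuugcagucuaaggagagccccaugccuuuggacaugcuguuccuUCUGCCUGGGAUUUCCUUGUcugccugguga
Mir682: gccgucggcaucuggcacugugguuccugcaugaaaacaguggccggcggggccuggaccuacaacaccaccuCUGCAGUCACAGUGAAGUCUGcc

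The mature strands below are shown because their entries share a seed and a direction of change. Capitals mark the seed, and miR-25-3p, which lies in the same cluster as miR-93 and miR-106b, has another seed.
mmu-miR-17-5p: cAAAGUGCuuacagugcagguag
mmu-miR-20a-5p: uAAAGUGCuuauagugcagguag
mmu-miR-93-5p: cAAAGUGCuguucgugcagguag
mmu-miR-106b-5p: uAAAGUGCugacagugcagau
mmu-miR-25-3p: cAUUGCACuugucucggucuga

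The hairpins were 53 to 139 bases long, with a median of 76, and lay on 20 chromosomes. Their GC content ranged from 31.03% to 82.19%, with a median of 53.91% over the 244 with a sequence. At such lengths 1 fragment is worth 1.268 FPKM on the median hairpin at the median depth of the dRfxCas13d libraries, and 0.9801 FPKM at that of the RfxCas13d libraries. The level rule therefore asked for about a single fragment in 4 libraries. The median hairpin held 0.75 fragments per library, 169 hairpins held under 1 on average, and 30 held at least 5. Only 17 entries reached 1 FPKM in all 36 libraries. Intervals are limited by these counts, and reads without molecular identifiers are not independent molecules.

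At the edge of the rule, 29 entries reached the level in exactly 4 libraries and 45 others in exactly 3. Just inside it, the highest value was 1.338 FPKM for Mir12184, 3.641 for Mir140 and 4.919 for Mir16-2. Just outside it, the highest value was 1.132 FPKM for Mir103-1, 3.201 for Mir125b-1 and 1.339 for Mir144. The values on both sides overlap, so the edge separates entries of like level.

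One entry dominated the fragments. Mir682 took 75.76% of all fragments on hairpins, with a median of 2021 FPKM. Its hairpin lies at chr13:75645046-75645141 (mm10), in an exon of the processed pseudogene Gm4149. A search of annotated transcripts found 23 other genes that carry a copy at least 90% identical over at least 90% of its length. The closest was Rpl37a, a protein of the large ribosomal subunit, at 98.96% identity. Reads of these copies and of Mir682 cannot be told apart from the deposited values, so the Mir682 level is uncertain as a level of that hairpin. Only the 244 hairpins with a RefSeq sequence were searched, which leaves out Mir7666 among others. Of the 244, 15 had such a copy, among them Mir692-1 and Mir703, the latter 98.17% identical to part of Eef1a1, a translation elongation factor.

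The next entries lay inside expressed genes. Mir3064 had a median of 225.7 FPKM and lies within a coding exon of Ddx5, an RNA helicase. Mir5125 had a median of 90.85 FPKM and lies in an intron of Srrm2, a splicing factor of nuclear speckles. Mir3113 had a median of 38.67 FPKM and overlaps a retained-intron transcript of Huwe1, a ubiquitin ligase. Below them came Mir8116 (24.03 FPKM, Ache), Mir6999 (22.5, Dgkz), Mir7652 (16.6, G3bp1), Mir703 (13.26), Mir3061 (12.91, Ppp2ca), Mir186 (11.49, Zranb2), Mir568 (11.29, Zbtb20) and Mir7036b (9.483, Add1), each with its median and the gene around it. Of the hairpins, 166 had a median of 0.

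Most entries were placed within protein-coding genes by GENCODE vM21 (mm10): 141 in introns, 25 in exons of coding transcripts, and 25 only in exons of non-coding transcripts of such genes, mostly retained introns. Another 23 lay in exons and 11 in introns of non-coding genes, 23 overlapped only a gene on the opposite strand, and 40 lay outside GENCODE genes. Of 166 hairpins inside introns of coding transcripts, 65 touched a coding exon directly. Whether the authors' counting used strand, or how it treated reads shared by a hairpin and its host gene, is not given in the sources used here, so an entry cannot be told apart from the gene around it by these values alone. Of the hairpins placed above, 7 overlapped an annotated snoRNA or scaRNA, including Mir1291, Mir1839, Mir677 and Mir6516. For Mir1839, Mir1949 and Mir3068 that annotation carries the name of the entry itself.

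The main comparison asked how entries differed between active and nuclease-dead enzyme given the same targeting crRNA. Of the 291 entries, 42 met the level rule through RfxCas13d libraries alone and 31 through dRfxCas13d libraries alone. The choice favoured 1 direction of change for them, so they enter no count. The other 218 were read from a fit over all genes. An entry was called with an adjusted p (limma on log2 of scaled FPKM + 1, Benjamini-Hochberg over 13293 genes) under 0.05 and a fold of at least 2. In the mean of the 7 targeting crRNAs 19 entries were called, or 8.72%, against 2.36% of all genes tested. Of these 15 were higher with RfxCas13d (1.65% of all genes were called higher) and 4 were lower (0.715%). Without the fold the order was reversed. A limma adjusted p under 0.05 was reached by 57 of the 218 entries and by 10460 of the 13293 genes, a larger share. The median log2 fold change was 0.0958 over the entries and 0.0138 over all genes. Of the 32 entries with a mean of at least 5 fragments, 7 were called, 5 higher and 2 lower.

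**Figure D1:**
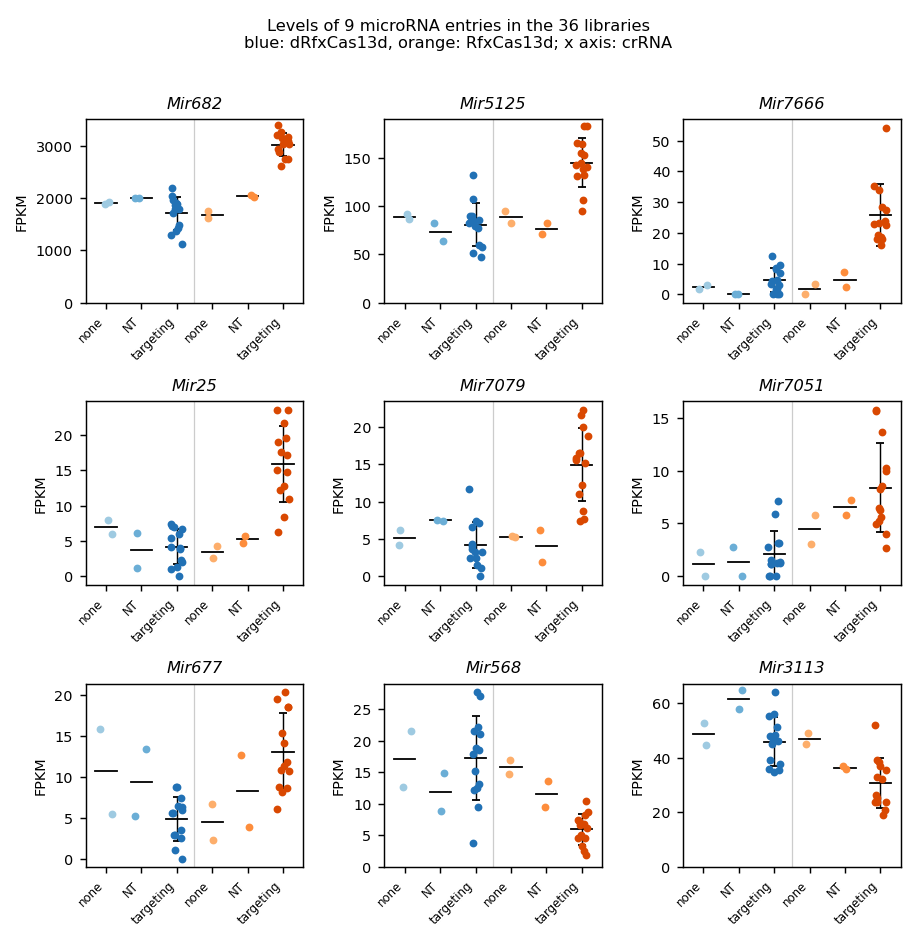
FPKM of 9 entries in each of the 36 libraries, by nuclease (blue dRfxCas13d, orange RfxCas13d) and crRNA (x axis). Points are libraries, lines are means, and bars are 1 SD over the 14 targeting libraries. Mir25 sat at 6.34 to 23.6 FPKM with RfxCas13d and a targeting crRNA and at 0 to 7.40 with dRfxCas13d, while Mir568 moved the other way.

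Mir7666 had the largest fitted change among the entries called. Over the 14 targeting libraries its level was 16.1, 23.0 and 54.3 FPKM (lowest, median, highest) with RfxCas13d and 0, 3.77 and 12.6 with dRfxCas13d, so the groups did not overlap. With NT crRNA it was 7.23 and 2.21 against 0 and 0 FPKM, and without crRNA 0 and 3.32 against 1.73 and 3.09. The log2 fold change was 2.66 (SE 0.32, limma adjusted p = 8.35e-08), from 258 against 37 fragments. The entry lies at chr8:40307875-40307929 within an intron of Fgf20, a growth factor gene at 0.0104 against 0.0398 FPKM. It also overlaps, on the other strand, Micu3, a regulator of mitochondrial calcium uptake, which moved the other way (log2 fold change -0.64).

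The cluster of Mir25, Mir93 and Mir106b, which lies within the DNA replication gene Mcm7 at chr5:138165321-138165818, rose in all its members. Mir25 measured 6.34, 16.1 and 23.6 FPKM with RfxCas13d and 0, 4.12 and 7.40 with dRfxCas13d over the targeting libraries. With NT crRNA it was 4.73 and 5.79 against 1.25 and 6.10 FPKM, and without crRNA 2.65 and 4.35 against 7.95 and 6.07. The targeting ranges overlapped only at their ends. Its log2 fold change was 1.86 (SE 0.20, limma adjusted p = 9.49e-09), it was higher with all 7 crRNAs, and it was called with 6 of them. Mir93 changed by 1.28 (SE 0.35, limma adjusted p = 0.00219; 60 against 13 fragments) and Mir106b by 1.06 (SE 0.27, limma adjusted p = 0.00101; 46 against 12 fragments). Mcm7 itself measured 100 ± 7.96 against 87.3 ± 4.09 FPKM (SD, n = 14), or 0.22 as a log2 fold change. Summed over the cluster, the level was 1.92 ± 0.446 fragments per 1000000 with RfxCas13d and 0.52 ± 0.263 with dRfxCas13d (SD, n = 14). By GENCODE, Mir25 and Mir93 lie in an exon of a retained-intron transcript of Mcm7, and Mir106b lies in an intron.

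Mir7079 lies in Rpl13, a ribosomal protein gene, directly beside a coding exon (chr8:123104975-123105043). Its level was 7.48, 15.7 and 22.3 FPKM with RfxCas13d and 0, 3.49 and 11.7 with dRfxCas13d over the targeting libraries. It was 1.92 and 6.17 against 7.59 and 7.43 FPKM with NT crRNA, and 5.38 and 5.29 against 4.15 and 6.16 without crRNA. The increase was therefore seen with targeting crRNAs, at a log2 fold change of 1.80 (SE 0.25, limma adjusted p = 7.35e-07). Rpl13 rose as well, from 48.5 ± 4.47 to 97.4 ± 9.11 FPKM (SD, n = 14; log2 fold change 1.01).

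Mir7051 lies in Etfb, a subunit of a mitochondrial electron carrier (chr7:43457497-43457569). It measured 2.64, 7.37 and 15.7 FPKM with RfxCas13d and 0, 1.31 and 7.09 with dRfxCas13d, with a log2 fold change of 1.75 (SE 0.24, limma adjusted p = 6.02e-07). It was also called with NT crRNA, at 7.26 and 5.83 against 0 and 2.81 FPKM (log2 fold change 1.93, limma adjusted p = 0.032). Without RfxCas13d NT replicate 1, which holds the 7.26 and the hepatocyte markers, it was 1.80 (limma adjusted p = 0.146) and not called. Without crRNA Mir7051 was at 3.05 and 5.84 against 0 and 2.33 FPKM (log2 fold change 1.52, limma adjusted p = 0.194), not called. Its targeting change differed from its NT change by -0.18 (limma adjusted p = 0.868). Etfb changed by 0.22 with targeting crRNAs.

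Mir677 lies in an intron of Atp5b, a subunit of the mitochondrial ATP synthase, where a snoRNA is also annotated (chr10:128085286-128085363). Its level was 6.05, 11.6 and 20.4 FPKM with RfxCas13d and 0, 5.60 and 8.83 with dRfxCas13d over the targeting libraries. With NT crRNA it was 12.7 and 3.90 against 13.4 and 5.26 FPKM, so the libraries of a group differed by more than the nucleases did. The log2 fold change with targeting crRNAs was 1.42 (SE 0.25, limma adjusted p = 1.77e-05), beside 0.18 for Atp5b.

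Mir148a lies outside annotated genes (chr6:51269812-51269910) and split by crRNA. It measured 0.689, 5.30 and 11.2 FPKM with RfxCas13d and 0, 0 and 5.81 with dRfxCas13d. It was called higher with Map2 crRNA 3, Mapt crRNA 4, Mapt crRNA 6 and Rbfox3 crRNA 5, and its log2 fold change with the other 3 lay near 0. The split lay in the dRfxCas13d libraries. These were all at 0 FPKM with the crRNAs that gave a call and at 2.33 to 5.81 with the other 3. The RfxCas13d ranges overlapped, at 2.7 to 6.1 FPKM with the crRNAs that gave a call and 0.689 to 11.2 with the other 3. The mean log2 fold change was 1.38 (SE 0.24, limma adjusted p = 1.31e-05). Its dRfxCas13d level was lower with targeting crRNAs than with NT crRNA (log2 fold change -2.10, limma adjusted p = 0.00843), where it stood at 7.41 and 7.25 FPKM. With NT crRNA the RfxCas13d libraries held 8.03 and 3.68 FPKM.

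Mir6516 lies in Snhg20, a snoRNA host gene, and overlaps an annotated scaRNA. It measured 3.50, 10.6 and 20.5 FPKM with RfxCas13d and 0.795, 4.18 and 8.37 with dRfxCas13d, a log2 fold change of 1.12, beside 1.18 for Snhg20. With NT crRNA it was 6.62 and 9.94 against 1.91 and 5.59 FPKM, a log2 fold change of 1.06 that was not called. Without crRNA it was 2.02 and 10.5 against 2.60 and 5.41 FPKM. The other entries called higher held fewer fragments. These were Mir6941 in Jag2, a Notch ligand (1.32; 78 against 22 fragments), Mir6922 in Srebf1, a regulator of lipid synthesis (1.21; 31 against 3), Mir7663 in Tbpl1 (1.15; 35 against 8), Mir7052 in Josd2, a deubiquitinase (1.12; 67 against 19), Mir1894 in Ppp1r10 (1.08; 96 against 43) and Mir12193 in Arl2, a small GTPase (1.01; 49 against 18). Each sum runs over 14 libraries a nuclease, of which those with RfxCas13d were deeper. With NT crRNA the log2 fold change was 1.34 for Mir6941, 1.46 for Mir1894 and 1.11 for Mir12193. It was 0 for Mir6922, -0.53 for Mir7663 and -0.26 for Mir7052. Without crRNA it was -0.87 for Mir6941, 0.74 for Mir1894 and 2.05 for Mir12193. It was -0.69 for Mir6922, -0.88 for Mir7663 and 0.03 for Mir7052. None of these control changes was called.

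Mir568 led the entries called lower. It lies in an untranslated exon of Zbtb20, a zinc finger repressor, and measured 1.83, 6.44 and 10.4 FPKM with RfxCas13d and 3.74, 18.2 and 27.7 with dRfxCas13d over the targeting libraries. With NT crRNA it was 13.6 and 9.52 against 8.84 and 14.8 FPKM, and without crRNA 17.0 and 14.7 against 12.6 and 21.5, so those groups overlapped. Its log2 fold change was -1.34 (SE 0.21, limma adjusted p = 3.66e-06), lower with all 7 crRNAs and called with 5. Zbtb20 measured 1.63 ± 0.264 against 2.80 ± 0.582 FPKM (SD, n = 14), or -0.51 as a log2 fold change. Mir6377 (-1.23, 12 against 56 fragments), Mir344e (-1.20, 4 against 25) and Mir1898 in Zfr (-1.02, 82 against 137) were also called lower. The last was just past the fold, and its call was lost in 13 of 36 left-out libraries. These entries were lower in the controls as well, though not called there. Mir6377 changed by -1.69 with NT crRNA (0 and 0 against 4.60 and 0.899 FPKM) and by -0.87 without crRNA. Mir344e changed by -0.56 with NT crRNA and by -2.10 without crRNA (0 and 0 against 7.23 and 1.29 FPKM). For Mir1898 the changes were -0.78 and -0.62.

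The most abundant entries split. Mir682 measured 2619, 3062 and 3401 FPKM with RfxCas13d and 1132, 1791 and 2204 with dRfxCas13d, without overlap. It was 2067 and 2030 against 1996 and 2012 FPKM with NT crRNA, and 1613 and 1754 against 1880 and 1931 without crRNA. Its log2 fold change of 0.87 (SE 0.04, limma adjusted p = 3.37e-15) stayed under the fold of 2 in the mean and passed it with 2 of 7 crRNAs. Rpl37a, which carries the closest copy, rose from 17.1 ± 3.79 to 51.5 ± 5.93 FPKM (SD, n = 14; log2 fold change 1.57). Mir682 and Mir7666 were the 2 of 218 entries whose 14 RfxCas13d libraries did not overlap the 14 dRfxCas13d libraries, both from above, which 12.5% of all genes did. A further 12.8% of all genes lay wholly below.

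Mir5125 measured 94.2, 143 and 183 FPKM with RfxCas13d and 46.7, 83.3 and 132 with dRfxCas13d over the targeting libraries. With NT crRNA it was 82.2 and 70.8 against 82.2 and 63.6 FPKM, and without crRNA 82.6 and 94.8 against 91.7 and 86.0. The log2 fold change was 0.89 (SE 0.066, limma adjusted p = 1.83e-11) from 2060 against 931 fragments, while Srrm2 around it changed by -0.06 (110 ± 6.4 against 117 ± 9.78 FPKM, SD, n = 14). Mir3064 did not pass the test at -0.02 (limma adjusted p = 0.744), with 222 ± 32.4 against 229 ± 28.0 FPKM. Mir3113 was lower, at 19.0, 29.2 and 51.9 against 34.8, 46.1 and 64.0 FPKM (log2 fold change -0.57, limma adjusted p = 1.34e-06), and Huwe1 around it changed by -0.64. Of the remaining abundant entries, Mir7652 changed by -0.75 (limma adjusted p = 0.0019) and, apart from Mir568, none was called.

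**Figure D2:**
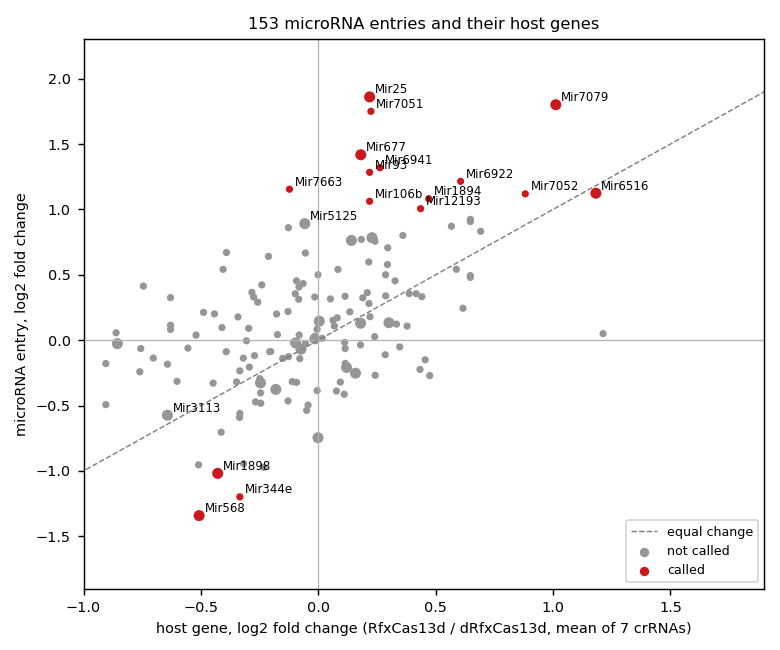
Log2 fold change (RfxCas13d over dRfxCas13d, mean of 7 targeting crRNAs) of 153 entries on the y axis and of the gene that holds each on the same strand on the x axis. Red points were called, large points held at least 5 fragments per library, and the dashed line marks equal change. Mir25, Mir7051, Mir677 and Mir5125 lie above the line with hosts between -0.06 and 0.22, while Mir6516 lies on it.

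Over the 153 entries with a tested host on the same strand, the entry and host changes correlated at a Pearson r of 0.507 and a Spearman rho of 0.511. Over the 22 with at least 5 fragments per library these were 0.68 and 0.748. Both values are across genes that share libraries, and a host may share reads with its entry. The median change was 0.107 for entries and -0.0436 for hosts. Of 13 entries called higher with a tested host, 12 had a host above 0 and 2 had a host that changed by at least 1 on the log2 scale. Mir25, Mir93 and Mir106b share the host Mcm7, which these counts therefore hold more than once. All 3 hosts of entries called lower were below 0. The entry exceeded its host by 1.64 for Mir25, 1.53 for Mir7051, 1.24 for Mir677 and 0.95 for Mir5125 on the log2 scale, differences given as a description since the pairs were picked after their values were seen. The pseudocount of 1 FPKM shrinks the change of a low entry more than that of its host.

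By placement, beside 1.65% of all genes called higher and 0.715% lower, the 20 eligible entries that lie only in exons of non-coding transcripts of coding genes had a median of 0.296, and 6 of them were called higher and 0 lower. Entries in introns of coding genes, 106 in number, had a median of 0.0691, with 6 called higher and 1 lower. The 19 in exons of coding transcripts had a median of 0.0903, with 1 higher and 1 lower. Entries opposite a gene had a median of -0.164, and 1 of 18 was called, lower. Entries that touch a coding exon had a median of 0.05 over 49 and those that do not 0.13 over 77. No test was made between placements.

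**Figure D3:**
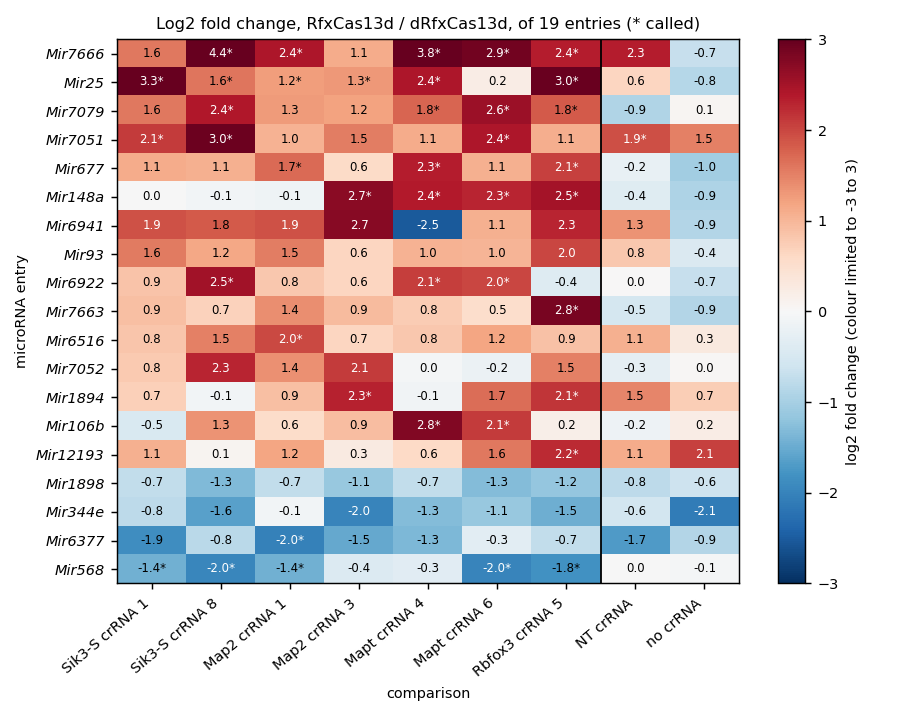
Log2 fold change (colour and number) of the 19 entries called in the mean of 7 targeting crRNAs, by comparison of RfxCas13d with dRfxCas13d on the x axis. A star marks a call in that single comparison. Mir25 is starred with 6 of the 7 targeting crRNAs and no entry with all 7, and of the 19 Mir7051 alone is starred with NT crRNA, a call lost without RfxCas13d NT replicate 1.

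Single crRNAs gave 2 libraries against 2. The share of all genes called in the same way stands in parentheses after each count. With Sik3-S crRNA 1 the number called was 19 of the 218 entries (3.06% of all genes), 14 higher (1.83%) and 5 lower (1.23%), and with Sik3-S crRNA 8 it was 17 (2.87%), 11 higher (1.87%) and 6 lower (1%). With Map2 crRNA 1 it was 16 (3.63%), 10 higher (2.33%) and 6 lower (1.29%), and with Map2 crRNA 3 it was 11 (1.44%), 8 higher (0.873%) and 3 lower (0.564%). With Mapt crRNA 4 it was 19 (3.17%), 16 higher (2.32%) and 3 lower (0.85%), and with Mapt crRNA 6 it was 20 (3%), 14 higher (2.08%) and 6 lower (0.918%). With Rbfox3 crRNA 5 it was the most, 29 (3.05%), 25 higher (1.72%) and 4 lower (1.33%). Higher calls outnumbered lower ones with each of the 7 crRNAs, as they did over all genes. Of the 218 entries 58 were called higher with at least 1 of the 7 crRNAs, and 22 of these (37.9%) with at least 2, beside 379 of 640 (59.2%) of all genes. For lower calls it was 4 of 26 entries (15.4%) and 200 of 402 genes (49.8%). No entry was called with all 7. Single libraries moved some counts by over 1.5 times. The Rbfox3 count fell to 15 without RfxCas13d with Rbfox3 crRNA 5 replicate 1 and to 17 without either dRfxCas13d library of that crRNA. The Map2 crRNA 1 count fell to 9 without its dRfxCas13d replicate 1, the Map2 crRNA 3 count to 6 without its RfxCas13d replicate 2 and the Mapt crRNA 6 count to 12 without its dRfxCas13d replicate 1.

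**Figure D4:**
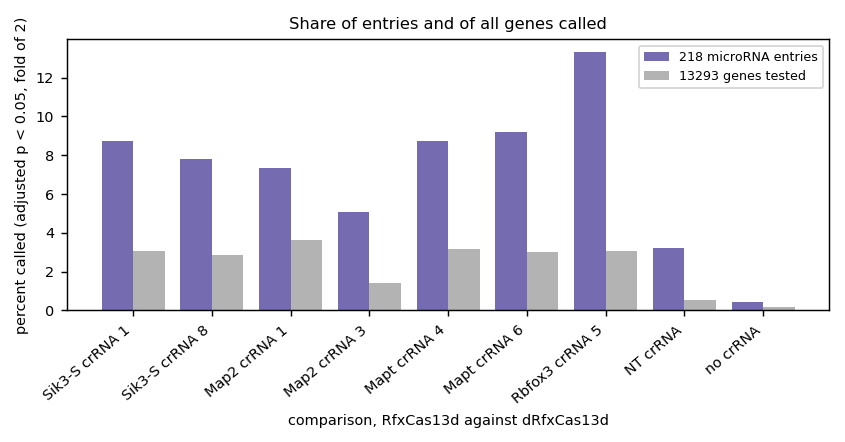
Percent of 218 entries (purple) and of all 13293 genes tested (grey) called in each comparison of RfxCas13d with dRfxCas13d (x axis). The entries stand at 13.3% with Rbfox3 crRNA 5 and 3.21% with NT crRNA, beside 3.05% and 0.564% of all genes.

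With NT crRNA 7 of the 218 entries were called against 0.564% of all genes, 4 higher (0.203%) and 3 lower (0.361%), and 2 were called without RfxCas13d NT replicate 1. Higher were Mir6920 (2.52, limma adjusted p = 0.0192), Mir21a (2.02, limma adjusted p = 0.00991; 3.60 and 2.64 against 0 and 0 FPKM), Mir7051 and Mir7-1 (1.53, limma adjusted p = 0.00529). Lower were Mir6934 (-2.34, limma adjusted p = 0.00164), Mir5619 (-2.12, limma adjusted p = 0.0357) and Mir128-1 (-1.30, limma adjusted p = 0.0417). Without that library Mir6934 (limma adjusted p = 0.0153) and Mir7-1 (1.48, limma adjusted p = 0.0417) were called. Mir6920 was then at 1.82 (limma adjusted p = 0.2), Mir21a at 1.85 (limma adjusted p = 0.0759), Mir5619 at -2.12 (limma adjusted p = 0.124) and Mir128-1 at -1.30 (limma adjusted p = 0.139). The counts behind them are small, as Mir6934 rests on 0 and 0 against 3 and 2 fragments. Without crRNA a single entry was called, Mir7081 (1.65, limma adjusted p = 0.0273), against 0.173% of all genes, of which 0.0451% were higher and 0.128% lower. That count was 2 without replicate 1 of RfxCas13d alone and 0 without its replicate 2. Between the dRfxCas13d groups, 5 entries differed between targeting and NT crRNA, against 0.0903% of all genes, 1 higher (0.0301%) and 4 lower (0.0602%). That count was 2 without dRfxCas13d NT replicate 1 and 8 without dRfxCas13d with Map2 crRNA 3 replicate 1 or without either library of RfxCas13d alone.

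Whether the targeting effect differed from the NT effect was tested directly. The difference was called for 10 of 218 entries (all genes 0.828%), 7 above (0.632%) and 3 below (0.196%). Without RfxCas13d NT replicate 1 it was called for 2 and without replicate 2 for 5, and it was called for 6 without dRfxCas13d with Sik3-S crRNA 1 replicate 1 or RfxCas13d with Rbfox3 crRNA 5 replicate 1. Those above were Mir7079, Mir6934, Mir5619, Mir7227, Mir6945, Mir128-1 and Mir99a, and those below Mir466i, Mir7063 and Mir7-1. Of the 19 entries called in the mean of 7 targeting crRNAs, Mir7079 alone was among them. The difference was 0.31 for Mir7666, -0.38 for Mir1894, -0.02 for Mir6941, -0.10 for Mir12193, 0.07 for Mir6516 and 0.46 for Mir6377. Their limma adjusted p ran from 0.728 to 0.991, which does not show equal effects. It was 1.74 for Mir148a and 1.63 for Mir677 (limma adjusted p = 0.0522 and 0.0828). For Mir7079 the difference was 2.70 (limma adjusted p = 0.00591), and 2.05 without RfxCas13d NT replicate 1 (limma adjusted p = 0.0837). Mir682 and Mir5125 passed the test at a difference under the fold of 2 and so were not called. It was 0.84 for Mir682 (limma adjusted p = 1.01e-05; 0.85 without that library) and 0.82 for Mir5125 (limma adjusted p = 0.00194; 0.92 without it). The NT effect differed from that without crRNA for 0 of 218 entries by limma, with 24 at an unadjusted p under 0.05, and 0.256% of all genes were called, 0.0828% above and 0.173% below. Leaving out 1 library gave at most 3 such entries, the 3 without dRfxCas13d NT replicate 2. These comparisons share their NT libraries.

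**Figure D5:**
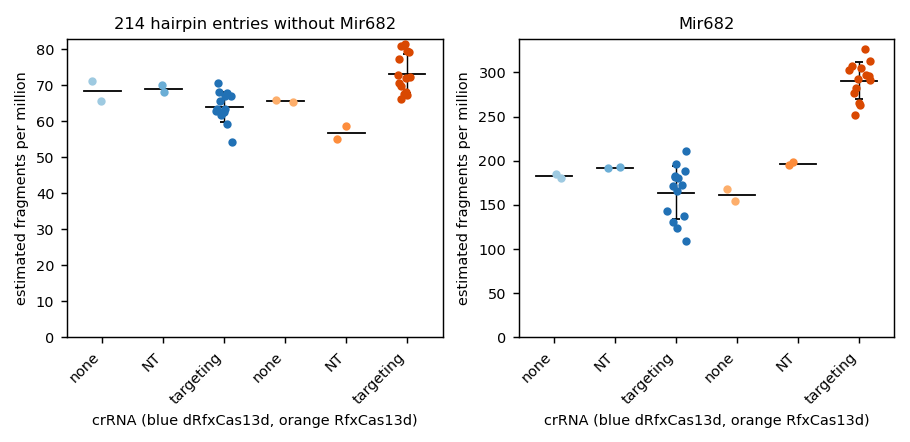
Estimated fragments per 1000000 on 214 hairpins other than Mir682 (left; those chosen through a single nuclease left out) and on Mir682 (right), by nuclease and crRNA on the x axis. Points are libraries, lines are means, and bars are 1 SD over 14 libraries. Mir682 ranged from 251.4 to 326.5 with RfxCas13d and a targeting crRNA and from 108.7 to 211.6 with dRfxCas13d.

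Summed over the 214 hairpins other than Mir682 that did not depend on a single nuclease, the level was 73.23 ± 5.407 fragments per 1000000 with RfxCas13d and a targeting crRNA and 64.01 ± 4.169 with dRfxCas13d (SD, n = 14). The ranges, 66.24 to 81.37 and 54.21 to 70.72, overlapped. With NT crRNA the order was reversed, at 55.06 and 58.56 against 68.0 and 69.98. Without crRNA it was 65.31 and 65.86 against 65.52 and 71.08. Of these hairpins 101 to 139 and 97 to 126 held at least 1 fragment in the targeting libraries, and the deeper libraries were those with RfxCas13d, whose part in that count was not tested.

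Cluster sums leave out members chosen through a single nuclease. Mir17, Mir19a and Mir20a, of a cluster known to promote proliferation, summed to 0.508 ± 0.184 fragments per 1000000 with RfxCas13d and 0.172 ± 0.139 with dRfxCas13d (SD, n = 14). Their primary transcript Mir17hg rose from 3.52 ± 0.683 to 6.01 ± 1.12 FPKM (SD, n = 14; log2 fold change 0.65, limma adjusted p = 2.21e-09). Mir17 changed by 0.91 and Mir20a by 0.92 (limma adjusted p = 0.00162 and 0.00286), both under the fold of 2. With NT crRNA Mir17 changed by -0.57 and Mir20a by 1.07, neither called. Mir22hg, the transcript of miR-22, rose from 0.712 ± 0.34 to 2.22 ± 0.59 FPKM (SD, n = 14; log2 fold change 0.93), and Mir100hg fell from 2.65 ± 0.37 to 1.85 ± 0.28 (SD, n = 14; log2 fold change -0.34). In the cluster with Mir23a and Mir27a, Mir24-2 held 199 against 92 fragments (log2 fold change 0.69, limma adjusted p = 0.0132). With NT crRNA Mir24-2 changed by 0.99 and was not called. Mir99b and Mirlet7e held 18 against 11 fragments, and Mir669h in Sfmbt2 held 19 against 12, too few for a statement.

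By seed, all 4 entries with AAAGUGC (Mir17, Mir20a, Mir93 and Mir106b) had adjusted p under 0.05 in the fit over all genes and were higher with RfxCas13d, with a median of 0.993 and 2 of them called. They lie in 2 transcripts, so they are not independent. With NT crRNA Mir20a and Mir93 changed by 1.07 and 0.80, and Mir17 and Mir106b by -0.57 and -0.16, none called. Of the let-7 family with GAGGUAG, which restrains growth genes and Lin28, 5 eligible entries had a median of 0.274 and 0 were called. The 2 eligible miR-7 entries with GGAAGAC held 188 against 132 fragments, mostly on Mir7-1 in Hnrnpk, and 0 were called. The miR-15 and miR-16 family with AGCAGCA stood at a median of -0.317 over 3 eligible entries, 0 of them called. These shares concern precursor regions in poly(A) RNA and not mature microRNAs.

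For entries chosen through the libraries of a single nuclease the values alone are given. Mir7671 held 22 against 1 fragments in the targeting libraries and Mir18 held 20 against 5. Mir3470b held 1 against 64 fragments, and it lies opposite Gramd1c, which changed by -1.54.

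A list of 49 genes of microRNA processing and silencing, 45 of them tested, gave 0 calls in either direction in the mean of 7 targeting crRNAs, against 2.36% of all genes. At an adjusted p under 0.05 without the fold, 16 were higher and 26 lower, and their median was -0.0968. Dicer1 measured 12.6 ± 0.802 against 21.8 ± 0.925 FPKM (SD, n = 14; log2 fold change -0.72, limma adjusted p = 5.27e-19) and Drosha 38.4 ± 6.16 against 54.3 ± 7.87 (SD, n = 14; log2 fold change -0.47). Xrn2, a nuclear 5′ to 3′ exonuclease, measured 46.2 ± 2.81 against 82.2 ± 2.43 FPKM (SD, n = 14; log2 fold change -0.80), the silencing scaffold Tnrc6a changed by -0.68 and the deadenylase scaffold Cnot1 by -0.60. Others rose, such as Tarbp2, a Dicer1 partner, by 0.60, the cap-binding Ncbp2 by 0.54 and the export GTPase Ran by 0.37, chosen after their values were seen. Tut4, a uridylyltransferase, changed by -0.57. Ago2 changed by -0.24 and Xpo5 by 0.14, while Dgcr8 did not pass the test (0.07, limma adjusted p = 0.0534). Over all genes, 40.6% were higher and 38.1% lower at that threshold. With NT crRNA 9 of the 45 were higher and 16 lower at the same threshold, and without crRNA 3 and 3. These fits kept RfxCas13d NT replicate 1. Ran and Xpo5 rose in both controls as well. The log2 fold change with NT crRNA and without crRNA was 0.32 and 0.29 for Ran and 0.17 and 0.19 for Xpo5. It was -0.29 and -0.06 for Dicer1, -0.32 and 0.01 for Xrn2, -0.35 and -0.01 for Cnot1, and -0.08 and 0.16 for Drosha. For Tarbp2 it was 0.35 and -0.01, and for Ncbp2 0.16 and -0.08.

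As a point of comparison, snoRNA entries, which are also short and mostly intronic, were taken by the same level rule. Of 93 that did not depend on a single nuclease, 47 were called higher and 0 lower, with a median of 1.03, against 15 and 4 of 218 microRNA entries and 1.65% and 0.715% of all genes. No test of that difference was made.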

How the data were processed

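RNA from sorted N2a cells was prepared with a poly(A) mRNA-seq kit and sequenced as paired reads. Per the submitters' processing notes and methods, the authors used Trim Galore for trimming, Subread for alignment (mm10) and featureCounts for counting, and deposited FPKM per gene. Counts were not used here, so DESeq2, which the authors ran, was replaced by limma 3.58.1 (R 4.3.3) on log2(FPKM / median-of-ratios factor + 1), with 1 mean per group over 36 libraries, a trended variance and Benjamini-Hochberg adjustment over 13293 genes (at least 1 FPKM in at least 2 libraries). Size factors were 0.9761 to 1.027. Fold changes are on that scale and understate low genes. Whole fragments were recovered for 98% to 100% of low values within 0.1 fragment. Each depth was chosen to make these same values whole, so that share is no check on it. No count test was run on the fragments. The exact test exchanged nuclease labels within each targeting crRNA (279936 arrangements, smallest p 7.14e-06). Columns of no sample numbered 0. The model was tested on simulated data. Changes were added there only to genes above the level of most hairpins, so that test does not cover low entries. Members and lists were chosen with earlier results of these data known. Entries were named by level (12 highest medians), by call (up to 15 in each direction), by cluster (at least 3 within 10000 bases), by recurrence, with hosts, and at the edge of the rule; others were chosen after their values were seen. Placement came from GENCODE vM21 and sequences from RefSeq (GRCm38.p6). Copies were searched with blastn 2.17.0.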

Additional observations from a re-analysis of the deposited data

Results flagged for a closer look

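For 15 entries the effect of RfxCas13d with targeting crRNAs differed from that with NT crRNA by a direct test of the difference (limma adjusted p under 0.05 over all genes). The difference (log2, targeting minus NT) was 0.84 for Mir682, 0.82 for Mir5125, 2.70 for Mir7079, 0.81 for Mir22hg, 0.57 for Mir3064 and -0.51 for Mir100hg. It was -1.40 for Mir7-1, 1.64 for Mir6945 and -1.75 for Mir466i. For entries with at most 4 fragments in any NT library it was 2.52 for Mir6934, 2.07 for Mir5619, 1.85 for Mir7227, 1.51 for Mir128-1, 1.18 for Mir99a and -1.43 for Mir7063. Without RfxCas13d NT replicate 1, the library with a summed hepatocyte marker level of 453 FPKM, the adjusted p stayed under 0.05 for Mir682 (0.00019), Mir5125 (0.00529), Mir6934 (0.00814) and Mir100hg (0.0308) only. No cause was tested.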

How the results depend on the processing

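Counts below are of the 218 entries called. In the mean of 7 targeting crRNAs the count was 35 and 47 with pseudocounts of 0.5 and 0.1 FPKM and 7 among entries with at least 5 fragments, a choice made after seeing the data. With a mean FPKM of at least 5 it was 7 in the mean, 7 and 6 for Sik3-S crRNA 1 and 8, 8 and 4 for Map2 crRNA 1 and 3, 6 and 4 for Mapt crRNA 4 and 6, 8 for Rbfox3, 2 for NT, 0 without crRNA, 3 for targeting minus NT and 2 for dRfxCas13d targeting against NT. With no filter it was 11 for Sik3-S crRNA 8, 8 for Map2 crRNA 1, 5 for Map2 crRNA 3, 12 for Mapt crRNA 4, 16 for Rbfox3, 4 for NT and 5 for targeting minus NT. A pseudocount of 1 fragment gave 5 for targeting minus NT. Removing the length trend gave 6 for targeting minus NT and 8 for dRfxCas13d, the latter also with the replicate block. Fitting 4 libraries alone gave 30 for Sik3-S crRNA 1; the differences of effects and the dRfxCas13d comparison have no such fit. The single call without crRNA was lost (0) with a pseudocount of 0.1 FPKM or 1 fragment and with 4 libraries. The cause of these shifts was not tested.

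Leaving out each library gave 16 to 21 for the mean, 14 to 21 and 13 to 19 for Sik3-S crRNA 1 and 8, 9 to 17 and 6 to 13 for Map2 crRNA 1 and 3, 14 to 21 and 12 to 23 for Mapt crRNA 4 and 6, 15 to 31 for Rbfox3, 2 to 10 for NT, 0 to 2 without crRNA, 2 to 12 for targeting minus NT, 0 to 3 for NT minus no crRNA and 2 to 8 for dRfxCas13d targeting against NT.

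Replicate numbers did not pair the libraries (correlations of deviations -0.0321 to 0.0595). With the number as a replicate block the counts were 19 in the mean, 18 for Sik3-S crRNA 1, 28 for Rbfox3, 7 for NT and 9 for targeting minus NT.

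Entries near 0 changed sign. Mir6999 was -0.0108 as deposited, -0.0268 with quantile normalization and -0.1055 with the length trend removed, with or without the block. With that trend removed Mir7081 was -0.079, Mir669h -0.0207 and Mir99b -0.09. Over left-out libraries the log2 fold change ran from -0.132 to 0.1515 for Mir6999, -0.176 to 0.2344 for Mir99b, -0.218 to 0.1136 for Mir5619, -0.0434 to 0.1275 for Mir7081, -0.0644 to 0.0209 for Mir3064, -0.156 to 0.0182 for Mir186 and -0.0426 to 0.2718 for Mir669h. Mir6516, Mir1894, Mir106b and Mir12193 fell under the fold of 2 with the length trend removed, and Mir7663 and Mir12193 with a pseudocount of 1 fragment. Leaving out single libraries (36 in turn) ended the call of Mir1898 in 13, Mir12193 in 12, Mir106b in 8, Mir1894 in 6, Mir7052 in 3, Mir7663 and Mir344e in 2 each and Mir6516 in 1.

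An exact test of the change of an entry against that of its host was added after seeing the data. It gave an adjusted p under 0.05 in 13 of 38 pairs. Limiting it to entries with at least 2 fragments per library, a choice made after those p-values were seen, gave 9 of 25. Some pairs were taken because the entry was called, so no p is given for a pair. Low fragment counts limit all values of entries under 1 fragment per library.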
